A study of Mus musculus with 8 samples.

Results

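The kinetochore, spindle checkpoint and mitotic kinase genes described here are a set of 53 genes listed by name, with 1 gene listed in duplicate counted once. Their probes were found by matching the RefSeq accession of each non-control probe to the gene, which gave 66 probes for 53 genes among 26262 genes tested. RNA was measured on 8 one-colour Agilent mouse arrays, 2 in each of 4 groups. The 2/4 clone, labelled as expressing ChAT (choline acetyltransferase, which synthesises acetylcholine), was profiled after retinoic acid (RA) at 1 µM and untreated. N18TG2, the mouse neuroblastoma line from which the clone came, was profiled in the same way. RA is a vitamin A derivative widely used to make neuroblastoma cells differentiate. Per the labels, RA was given in medium with 1% serum while growth medium held 10%, and the medium of the untreated cells and the length of treatment are not stated, so serum may go with RA and cannot be told apart from it. Cells of the clone grew under the selection drug G418 (200 µg/mL), which goes with the line, and they stand for 1 clone. Whether the 2 arrays of a group hold RNA of separate cultures is not stated, so the p-values may measure only technical spread.

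The kinetochore is the protein assembly built on centromeric chromatin that ties each chromosome to spindle microtubules. Unattached kinetochores feed the spindle checkpoint, which holds back the anaphase-promoting complex until every chromosome is attached. The Aurora, Polo-like and NIMA-related kinases drive centrosome separation, spindle assembly and the correction of faulty attachments. Most of these genes are transcribed in G2 and mitosis, so their RNA is abundant in dividing cells and scarce in cells that have left the cycle. In bulk RNA, fewer dividing cells and less of each RNA per cell cannot be told apart.

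Levels are given as log2 scaled intensity, the log2 of the background-subtracted intensity minus the 75th percentile of its array. A value of 1 is thus a 2-fold brighter signal than that percentile, and levels of different probes are not comparable with each other. The 75th percentile ran from 264.8 to 1264 intensity units over the arrays. Clone RA replicate 1 stood apart from the others. On it, 72.1% of the spots were well above background against 48.6% to 63.3% on the other 7 arrays, and replicates correlated across genes at r = 0.9625 in the clone with RA, against 0.983 to 0.9873 in the other 3 groups. Results in the clone under RA are therefore also given without that array. All 11 markers of sympathoadrenal and neuroblastoma identity were well above background on all 8 arrays, and their summed linear level was 468 to 547 in the clone with RA, 289 to 291 in the untreated clone, 98.5 to 146 in the RA-treated parental line and 233 to 313 in the untreated parental line. Chgb alone made up 58.5% to 71.1% of that sum in the clone with RA and 23.3% to 40.4% in the RA-treated parental line. The markers moved in both directions: with RA, Chga (3.18 ± 0.29) and Chgb (3.15 ± 0.47) were higher in the clone than in the parental line, while Dbh (-3.91 ± 0.43) and Gata3 (-2.71 ± 0.48) were lower. The extraction text in the labels names hippocampus, and of 9 hippocampal neuron markers, 3 were well above background on all arrays while Prox1 and Neurod6 were on none. The summed hippocampal level was 4.63 to 5.5 in the clone with RA, 13.0 to 13.5 in the untreated clone, 4.04 to 5.41 in the RA-treated parental line and 5.34 to 5.43 in the untreated parental line. It was nearly all Wfs1, at 91.4% to 96.9% of the sum on every array. Of markers of other cells, 4 of 8 Schwann and glial, 2 of 6 fibroblast and 3 of 6 vessel and microglial markers were well above background on all arrays, with Lum, Twist2 and Cdh5 on none. Their summed levels were 0.873 to 1.02, 1.21 to 1.27 and 1.22 to 1.61 in the clone with RA, against 0.961 to 0.998, 1.06 to 1.22 and 1.2 to 1.47 in the untreated clone. In the same order they were 1.33 to 1.63, 0.569 to 0.722 and 0.355 to 0.48 in the RA-treated parental line and 2.0 to 2.12, 0.81 to 1.17 and 1.7 to 1.95 in the untreated parental line. With RA the clone arrays were thus lower than the parental ones for the Schwann and glial sum and higher for the other 2 sums, with no overlap. The part of these markers in the results was not tested.

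Promoter sequence shows what many of these genes share around their start. Of the 53 genes, 45 had a RefSeq promoter window of 300 bases, from 250 before to 50 after the start, in the GRCm38.p6 table. Motifs were searched on both strands, and none contains another. TTTGAA or TTCGAA, the core of the cell cycle homology region that DREAM and MuvB complexes bind, was found for 26 of 45 genes (57.8%), against 21.7% of 27025 mouse genes. CCAAT, the box bound by NF-Y, was found for 33 of 45 (73.3%), against 41.1% of mouse genes, and both kinds together for 23 of 45 (51.1%), against 9.65%. Of the 13 genes with a window that fell with RA in the clone, 10 held TTTGAA or TTCGAA, as did 16 of the other 32. In Anln, Aurka, Cdc25b, Cdca8, Cenpa, Plk1, Sgo1 and Spc25 these matches lay only after the start, and in Ube2c and Prc1 before it. CCAAT was found for 10 of those 13 and for 23 of the other 32. Spc24, Ska1 and Tpx2 also fell but had no window. These splits were not tested. The 100 bases before the start are printed for 6 genes, chosen after their values were seen, in lower case with the motif matches, on either strand, in capitals. Ube2c, Prc1 and Pttg1 fell with RA in the clone, Cdc20 was lower in the clone than in the parental line with RA, and Bub3 and Fzr1 passed no test.
Ube2c (chr2:164769829-164769928, plus strand): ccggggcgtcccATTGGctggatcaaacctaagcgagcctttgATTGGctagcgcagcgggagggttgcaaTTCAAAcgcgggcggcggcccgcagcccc
Prc1 (chr7:80294376-80294475, plus strand, the second of its windows): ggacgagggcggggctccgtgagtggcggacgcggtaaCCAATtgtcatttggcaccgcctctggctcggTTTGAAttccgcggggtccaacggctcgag
Pttg1 (chr11:43425982-43426081, minus strand): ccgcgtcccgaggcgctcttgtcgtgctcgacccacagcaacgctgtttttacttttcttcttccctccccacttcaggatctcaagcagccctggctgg
Cdc20 (chr4:118437344-118437443, minus strand): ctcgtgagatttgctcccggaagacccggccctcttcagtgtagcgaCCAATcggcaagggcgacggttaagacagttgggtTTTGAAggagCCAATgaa
Bub3 (chr7:131560270-131560369, plus strand): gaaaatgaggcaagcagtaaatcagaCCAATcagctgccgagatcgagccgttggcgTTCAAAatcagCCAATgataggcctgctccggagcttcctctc
Fzr1 (chr10:81378371-81378470, minus strand): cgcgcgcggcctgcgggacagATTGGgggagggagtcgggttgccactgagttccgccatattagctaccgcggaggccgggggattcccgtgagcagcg
Ube2c, Prc1, Cdc20 and Bub3 held both kinds of match in this stretch, Fzr1 only a CCAAT match and Pttg1 none. A match is a description of these letters and not a site of binding, and a missing match says nothing of any factor.

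The comparison of RA with no treatment in the clone asks how these genes answer RA in the ChAT-expressing line. Of the 53 genes, 16 fell and 0 rose at an adjusted p under 0.05 (limma with Benjamini-Hochberg adjustment over all genes), against 2.05% of all genes that fell and 2.58% that rose. They were Spc24, Pttg1, Ncaph, Anln, Ube2c, Plk1, Spc25, Ska1, Sgo1, Cenpa, Aurka, Cdc25b, Cenpe, Tpx2, Prc1 and Cdca8, which cover every role except the spindle checkpoint. The median log2 difference over the 53 genes was -1.27, against 0.018 over all genes, and 51 of 53 were below 0. Both clone RA arrays lay below both untreated clone arrays for 47 of 53 genes (88.7%), against 28.7% of all genes, and above them for Mis12 alone (1.89%, against 24.2%). They lay below all 6 other arrays for 45 of 53 (84.9%), against 14.1% of all genes. At an unadjusted p under 0.05 the count was 41 (77.4%), against 21.6% of all genes. The row of the slide differed between RA and untreated arrays of each line, so row and RA cannot be told apart here.

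**Figure D1:**
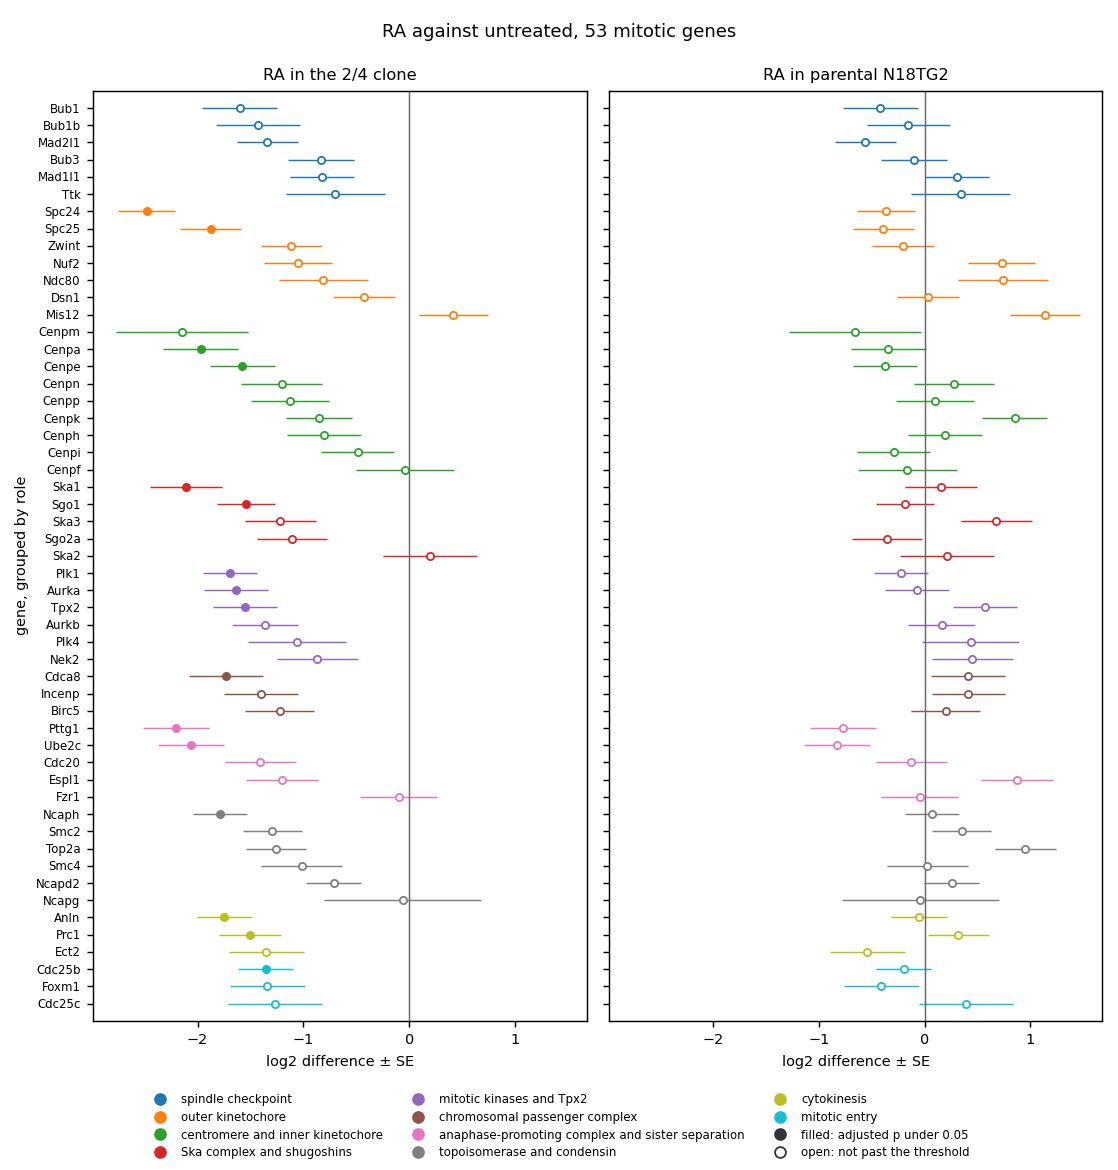
Log2 difference of RA against untreated (x axis, bars are standard errors) for the 53 genes grouped by role (colours), in the 2/4 clone (left panel) and parental N18TG2 (right panel). Filled points passed the adjusted p threshold. In the clone 16 genes are filled and 51 of 53 lie below 0, and in the parental line 0 are filled and 28 lie above 0.

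**Figure D2:**
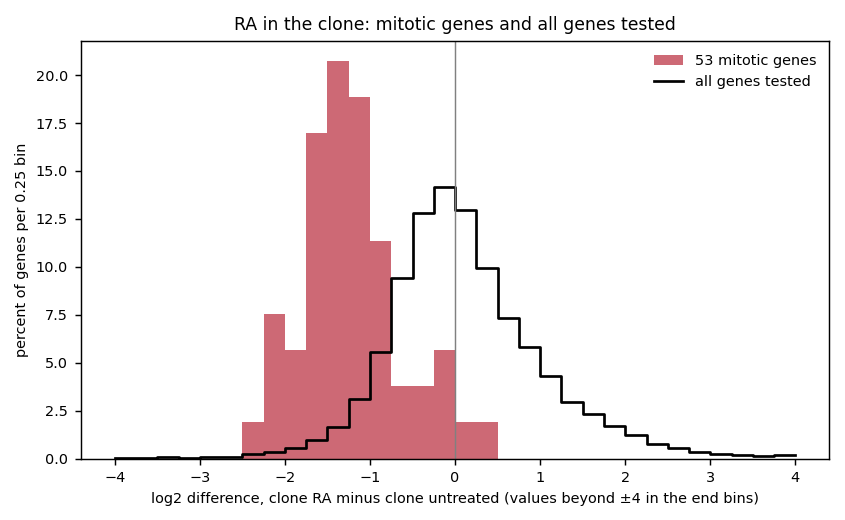
Distribution of the log2 difference of RA against untreated in the clone (x axis) as a percent of genes per bin (y axis), for the 53 mitotic genes and for all 26262 genes tested. The mitotic genes centre on -1.27 and all genes on 0.018.

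The same arrays of the clone with RA were set against the parental line with RA, which asks how far the lines stand apart under treatment. Here 40 of the 53 genes were lower in the clone and 0 higher, against 10.2% of all genes lower and 12.9% higher. The median log2 difference was -1.61, against 0.11 over all genes. The clone RA arrays lay below both parental RA arrays for 49 of 53 genes (92.5%), against 27.9% of all genes, and above them for 0 (against 31.0%). The 2 comparisons share the clone RA arrays, so their values are given side by side for each role. Slide row goes with the line within each treatment, and slide column goes with it throughout, since all clone arrays lay in columns 2 and 4 and all parental arrays in columns 1 and 3. Neither row nor column can be told apart from the line in this comparison, nor column from the line untreated or in the average line effect.

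The spindle checkpoint genes encode the proteins that sense unattached kinetochores. Of 6, none passed the test with RA in the clone, with 5 at an unadjusted p under 0.05 in limma, and 3 (Bub1, Bub1b and Mad1l1) were lower than in the parental line with RA. Bub1, a kinase that recruits the checkpoint to kinetochores, read 0.47 and 1.01 in the clone with RA, 2.01 and 2.67 in the untreated clone, 2.70 and 2.62 in the RA-treated parental line and 3.30 and 2.87 in the untreated parental line. Both clone RA arrays were the lowest of the 8. Its log2 difference with RA in the clone was -1.60 ± 0.35 (standard error, n = 2 arrays per group here and below, adjusted p = 0.0545), and the difference from the parental line with RA was -1.92 ± 0.35 (adjusted p = 0.00959). Bub1b, which encodes the inhibitor BubR1, differed by -1.43 ± 0.40 with RA in the clone (adjusted p = 0.0938) and by -1.82 ± 0.40 from the parental line (adjusted p = 0.0181). Mad2l1, the protein that inhibits Cdc20, read 2.42 and 2.66 in the clone with RA, 3.67 and 4.09 in the untreated clone, 3.20 and 2.90 in the RA-treated parental line and 3.67 and 3.55 in the untreated parental line. Its RA difference in the clone, -1.34 ± 0.29, missed the threshold (adjusted p = 0.0504). The other 2 Mad2l1 probes, which are dim, gave -0.18 and -0.54 with RA in the clone and 0.80 and 0.30 against the parental line with RA, where the chosen probe gave -0.51. Ttk, the kinase Mps1 that starts checkpoint signalling, read -1.52 and -0.64 in the clone with RA and -0.78 and 0.017 in the untreated clone. In the parental line it read -0.75 and 0.056 with RA and -0.89 and -0.49 untreated, and its difference in the clone was -0.70 ± 0.47 (adjusted p = 0.437). The clone arrays overlapped for this gene. Bub3, an adaptor for Bub1 and BubR1, differed by -0.84 ± 0.31 and Mad1l1, the anchor of Mad2, by -0.83 ± 0.30 with RA in the clone.

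The outer kinetochore holds the Ndc80 complex, which grips microtubules, and the Mis12 complex, which links it to the centromere. Of 7 genes, 2 fell with RA in the clone and 6 were lower than in the parental line with RA. Spc24, a subunit of the Ndc80 complex, read -0.42 and -0.57 in the clone with RA, 1.80 and 2.18 in the untreated clone, 1.79 and 1.88 in the RA-treated parental line and 2.12 and 2.28 in the untreated parental line. The clone RA arrays stood more than 2 log2 units below every other array. Spc24 was 5.59-fold lower with RA in the clone (-2.48 ± 0.27, adjusted p = 0.0139), which was the lowest log2 difference of the 53 genes, and 5.02-fold lower than in the parental line with RA (-2.33 ± 0.27, adjusted p = 0.00159). Its partner Spc25 read 3.09 and 2.90 in the clone with RA, 4.81 and 4.93 in the untreated clone, 5.24 and 4.72 in the RA-treated parental line and 5.47 and 5.27 in the untreated parental line. Spc25 fell by 1.88 ± 0.29 on the log2 scale with RA in the clone (adjusted p = 0.0243). The other subunits of that complex, Ndc80 and Nuf2, differed by -0.81 ± 0.42 and -1.05 ± 0.32 with RA in the clone (adjusted p = 0.322 and 0.119), and by -1.60 ± 0.42 and -2.17 ± 0.32 from the parental line with RA (adjusted p = 0.0361 and 0.0041). A second, dim Nuf2 probe (mean -2.54) gave -1.62 with RA in the clone and -1.31 against the parental line with RA. With RA in the parental line that probe gave 1.34 where the chosen probe gave 0.73. Mis12 went the other way in sign. It read -0.91 and -0.42 in the clone with RA, -1.03 and -1.14 in the untreated clone, 0.34 and 0.94 in the RA-treated parental line and -0.65 and -0.34 in the untreated parental line. Mis12 differed by 0.42 ± 0.33 with RA in the clone (adjusted p = 0.511) and by -1.31 ± 0.33 from the parental line with RA (adjusted p = 0.0305). Zwint, which holds the Rod-Zw10 complex at kinetochores, was lower than in the parental line with RA (-1.14 ± 0.29, adjusted p = 0.031), and Dsn1, of the Mis12 complex, missed the threshold (-0.97 ± 0.29, adjusted p = 0.0533).

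The 9 Cenp genes were grouped as centromere and inner kinetochore, although Cenpe and Cenpf encode outer kinetochore proteins. Of the 9, 2 fell with RA in the clone and 6 were lower than in the parental line with RA. Cenpa, the histone H3 variant that marks centromeres, read 0.79 and 1.43 in the clone with RA, 2.81 and 3.35 in the untreated clone, 2.31 and 2.40 in the RA-treated parental line and 2.46 and 2.93 in the untreated parental line. It was 3.92-fold lower with RA in the clone (-1.97 ± 0.36, adjusted p = 0.0331). Cenpe, a kinesin that moves chromosomes to the spindle equator, read 2.46 and 2.67 in the clone with RA, 4.16 and 4.13 in the untreated clone, 4.67 and 4.04 in the RA-treated parental line and 4.83 and 4.62 in the untreated parental line. Both clone RA arrays lay well below the other 6. Cenpe was 2.99-fold lower with RA in the clone (-1.58 ± 0.31, adjusted p = 0.0385). Cenpm had the lowest log2 difference of the role, and its clone replicates lay close together while its parental ones spread. All 8 arrays share 1 spread per gene in the test, so Cenpm took its wide standard error from the parental arrays. It read -2.74 and -2.56 in the clone with RA, -0.52 and -0.48 in the untreated clone, -1.61 and -0.34 in the RA-treated parental line and -1.18 and 0.55 in the untreated parental line, a difference of -2.15 ± 0.62 with RA in the clone (adjusted p = 0.105). Cenpf, a large outer protein of late G2, read -3.49 and -4.58 in the clone with RA, -4.51 and -3.50 in the untreated clone, -3.16 and -3.09 in the RA-treated parental line and -2.96 and -2.96 in the untreated parental line. The clone groups overlapped, with a difference of -0.038 ± 0.47 and a 95% interval from -1.14 to 1.06. The inner kinetochore genes Cenph, Cenpi, Cenpk, Cenpn and Cenpp differed by -1.21 to -0.49 with RA in the clone. Of them, Cenpi, Cenpk, Cenpn and Cenpp were lower than in the parental line with RA, by 1.36 to 2.11 on the log2 scale, and Cenph was not past the threshold (-0.60 ± 0.35, adjusted p = 0.259).

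The Ska complex couples kinetochores to shrinking microtubules, and the shugoshins guard centromeric cohesin. Of these 5 genes, 2 fell with RA in the clone and all 5 were lower than in the parental line with RA. Ska1 read 0.56 and 1.04 in the clone with RA, 2.65 and 3.17 in the untreated clone, 3.53 and 3.53 in the RA-treated parental line and 3.11 and 3.63 in the untreated parental line. It was 4.32-fold lower with RA in the clone (-2.11 ± 0.34, adjusted p = 0.026) and 6.64-fold lower than in the parental line with RA (-2.73 ± 0.34, adjusted p = 0.00205). Sgo1 read 1.72 and 1.56 in the clone with RA, 3.03 and 3.33 in the untreated clone, 3.36 and 3.03 in the RA-treated parental line and 3.41 and 3.34 in the untreated parental line. Sgo1 fell by 1.54 ± 0.27 on the log2 scale with RA in the clone (adjusted p = 0.032). Ska2 and Ska3 did not move alike. Ska2 read -2.17 and -1.07 in the clone with RA, -1.42 and -2.20 in the untreated clone, -0.088 and -0.12 in the RA-treated parental line and -0.13 and -0.50 in the untreated parental line. Ska2 was low on all 4 clone arrays relative to the parental ones, with or without RA, and its RA difference in the clone was 0.20 ± 0.45 (adjusted p = 0.834). Ska3 read -0.23 and -0.03 in the clone with RA, 0.83 and 1.35 in the untreated clone, 2.12 and 2.70 in the RA-treated parental line and 1.58 and 1.88 in the untreated parental line. It differed by -1.22 ± 0.33 with RA in the clone (adjusted p = 0.0919) and by -2.54 ± 0.33 from the parental line with RA (adjusted p = 0.00255). Sgo2a was also lower than in the parental line with RA (-1.67 ± 0.33, adjusted p = 0.0128).

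Among the mitotic kinases and Tpx2, 3 of 6 fell with RA in the clone and all 6 were lower than in the parental line with RA. Plk1, the kinase of mitotic entry and spindle assembly, read 3.62 and 3.85 in the clone with RA, 5.38 and 5.47 in the untreated clone, 4.89 and 4.85 in the RA-treated parental line and 5.19 and 5.00 in the untreated parental line. The untreated clone was the highest group and the clone with RA the lowest. Plk1 was 3.23-fold lower with RA in the clone (-1.69 ± 0.26, adjusted p = 0.0233). Aurka, the centrosomal Aurora kinase, read 2.70 and 2.90 in the clone with RA, 4.33 and 4.55 in the untreated clone, 5.18 and 4.76 in the RA-treated parental line and 5.26 and 4.83 in the untreated parental line. It was 3.1-fold lower with RA in the clone (-1.63 ± 0.30, adjusted p = 0.0343). Tpx2, which activates Aurora A on spindle microtubules, read 0.56 and 0.71 in the clone with RA, 2.05 and 2.32 in the untreated clone, 3.23 and 3.82 in the RA-treated parental line and 2.98 and 2.94 in the untreated parental line. Its RA difference in the clone was -1.55 ± 0.30 (adjusted p = 0.0385), and a second, dim probe gave -0.51. Of the 53 genes Tpx2 had the lowest log2 difference from the parental line with RA, -2.89 ± 0.30 (adjusted p = 0.00104), a 7.42-fold difference. The dim Tpx2 probe gave -1.70 there and was not past the threshold (limma adjusted p over probes = 0.087). Aurkb, the Aurora kinase of the passenger complex, read -4.71 and -4.59 in the clone with RA, -3.61 and -2.96 in the untreated clone, -1.99 and -2.34 in the RA-treated parental line and -2.36 and -2.29 in the untreated parental line. It missed the threshold with RA in the clone (-1.36 ± 0.32, adjusted p = 0.0612) and was lower than in the parental line with RA (-2.48 ± 0.32, adjusted p = 0.00226). The only Aurkb probe was dim (mean -3.11), though well above background on all 8 arrays. Its difference from the parental line with RA ran from -3.475 to -1.21 over 18 alternatives. Nek2, a centrosomal kinase, read 0.011 and 0.57 in the clone with RA, 0.75 and 1.58 in the untreated clone, 2.85 and 3.21 in the RA-treated parental line and 2.44 and 2.72 in the untreated parental line. The untreated clone already lay below the untreated parental line, and the RA difference in the clone was -0.87 ± 0.38 (adjusted p = 0.246). Plk4, which starts centriole duplication, differed by -1.06 ± 0.46 with RA in the clone (adjusted p = 0.241) and by -1.61 ± 0.46 from the parental line with RA (adjusted p = 0.045).

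The chromosomal passenger complex carries Aurora B to centromeres. Of its 3 genes listed here besides Aurkb, 1 fell with RA in the clone and 2 were lower than in the parental line with RA. Cdca8, which encodes borealin, read 3.36 and 3.69 in the clone with RA, 5.03 and 5.48 in the untreated clone, 6.63 and 5.90 in the RA-treated parental line and 5.95 and 5.76 in the untreated parental line. It was 3.32-fold lower with RA in the clone (-1.73 ± 0.35, adjusted p = 0.0426) and 6.69-fold lower than in the parental line with RA (-2.74 ± 0.35, adjusted p = 0.00224). A second Cdca8 probe gave -1.50 with RA in the clone and -3.22 against the parental line with RA. With RA in the clone neither probe passed over all probes (limma adjusted p = 0.0769, and 0.0574 for the chosen probe). With RA in the parental line the second probe gave 1.16 where the chosen probe gave 0.41. Birc5, which encodes survivin, read 4.61 and 4.59 in the clone with RA, 5.81 and 5.84 in the untreated clone, 6.88 and 6.13 in the RA-treated parental line and 6.46 and 6.15 in the untreated parental line. The 3 Birc5 probes gave -1.22, -0.70 and -1.29 with RA in the clone, none past the threshold. Incenp, the scaffold of the complex, differed by -1.40 ± 0.35 with RA in the clone (adjusted p = 0.0726) and by -1.16 ± 0.35 from the parental line with RA (adjusted p = 0.053).

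The anaphase-promoting complex marks securin and cyclin B for destruction, which frees separase to part the sister chromatids. Of 5 genes of this step, 2 fell with RA in the clone and 4 were lower than in the parental line with RA. Pttg1, which encodes securin, read 3.65 and 3.57 in the clone with RA, 5.97 and 5.66 in the untreated clone, 5.17 and 4.67 in the RA-treated parental line and 5.92 and 5.46 in the untreated parental line. It was 4.61-fold lower with RA in the clone (-2.21 ± 0.31, adjusted p = 0.0217). A second, dim Pttg1 probe gave -1.34 with RA in the clone. With RA in the parental line that probe gave 0.60 where the chosen probe gave -0.77. Ube2c, the ubiquitin-conjugating enzyme of the complex, read 2.78 and 2.91 in the clone with RA, 4.74 and 5.09 in the untreated clone, 4.00 and 4.52 in the RA-treated parental line and 5.27 and 4.91 in the untreated parental line. It was 4.19-fold lower with RA in the clone (-2.07 ± 0.31, adjusted p = 0.0233). Cdc20, the activator that the checkpoint blocks, differed by -1.41 ± 0.33 with RA in the clone (adjusted p = 0.065) and by -1.35 ± 0.33 from the parental line with RA (adjusted p = 0.0289). Fzr1 encodes Cdh1, the activator of late mitosis and G1. It read 2.85 and 3.64 in the clone with RA, 3.25 and 3.44 in the untreated clone, 2.99 and 3.53 in the RA-treated parental line and 3.43 and 3.17 in the untreated parental line. The 4 groups overlapped, with a difference of -0.10 ± 0.36 with RA in the clone and a 95% interval from -0.96 to 0.76; a second Fzr1 probe gave 0.25. Espl1, which encodes separase, differed by -1.20 ± 0.34 with RA in the clone (adjusted p = 0.1) and by -2.02 ± 0.34 from the parental line with RA (adjusted p = 0.00699).

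Topoisomerase II and condensin untangle and compact the chromosomes. Of 6 genes, 1 fell with RA in the clone and 4 were lower than in the parental line with RA. Ncaph, the kleisin subunit of condensin I, read 2.40 and 2.44 in the clone with RA, 4.14 and 4.29 in the untreated clone, 4.79 and 4.80 in the RA-treated parental line and 4.60 and 4.85 in the untreated parental line. The replicates lay close together, and Ncaph was 3.46-fold lower with RA in the clone (-1.79 ± 0.25, adjusted p = 0.0217). Top2a read 2.55 and 2.84 in the clone with RA, 4.04 and 3.87 in the untreated clone, 5.12 and 5.09 in the RA-treated parental line and 3.93 and 4.38 in the untreated parental line. It differed by -1.26 ± 0.29 with RA in the clone (adjusted p = 0.0586) and by -2.41 ± 0.29 from the parental line with RA (adjusted p = 0.00172). Ncapd2, another condensin I subunit, read 2.83 and 3.03 in the clone with RA, 3.60 and 3.69 in the untreated clone, 4.75 and 4.55 in the RA-treated parental line and 4.49 and 4.30 in the untreated parental line. Its difference from the parental line with RA was -1.72 ± 0.26 (adjusted p = 0.00446). Ncapg was the gene whose clone RA arrays disagreed most. It read -0.96 and -3.52 in the clone with RA, -2.47 and -1.89 in the untreated clone, -2.27 and -2.34 in the RA-treated parental line and -2.27 and -2.26 in the untreated parental line, so replicate 1 was the higher array of its pair. The difference was -0.06 ± 0.74 with RA in the clone, and -1.34 without replicate 1 (adjusted p = 0.138). The core subunits Smc2 and Smc4 differed by -1.29 ± 0.28 and -1.02 ± 0.38 with RA in the clone (adjusted p = 0.0503 and 0.185).

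The genes of cytokinesis organise the central spindle and the furrow. Of 3, 2 fell with RA in the clone, and the same 2 were lower than in the parental line with RA. Anln, which encodes the furrow scaffold anillin, read 2.30 and 2.54 in the clone with RA, 4.04 and 4.29 in the untreated clone, 4.38 and 4.48 in the RA-treated parental line and 4.45 and 4.52 in the untreated parental line. It was 3.36-fold lower with RA in the clone (-1.75 ± 0.26, adjusted p = 0.0227). Prc1, which bundles midzone microtubules, read 3.08 and 3.18 in the clone with RA, 4.59 and 4.66 in the untreated clone, 4.89 and 4.78 in the RA-treated parental line and 4.81 and 4.23 in the untreated parental line. It was 2.83-fold lower with RA in the clone (-1.50 ± 0.29, adjusted p = 0.0387). Ect2, the exchange factor that activates RhoA at the furrow, read 1.95 and 2.54 in the clone with RA, 3.36 and 3.83 in the untreated clone, 3.37 and 3.11 in the RA-treated parental line and 4.06 and 3.52 in the untreated parental line. Its difference in the clone was -1.35 ± 0.35 (adjusted p = 0.0835).

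Among 3 genes of mitotic entry, 1 fell with RA in the clone and 2 were lower than in the parental line with RA. Cdc25b, a phosphatase that activates Cdk1, read 0.41 and 0.65 in the clone with RA, 1.90 and 1.87 in the untreated clone, 2.34 and 2.60 in the RA-treated parental line and 2.71 and 2.62 in the untreated parental line. It was 2.56-fold lower with RA in the clone (-1.36 ± 0.26, adjusted p = 0.0384). Its relative Cdc25c read -1.53 and -1.58 in the clone with RA, -0.051 and -0.52 in the untreated clone, -0.35 and 0.27 in the RA-treated parental line and -1.01 and 0.14 in the untreated parental line. Cdc25c differed by -1.27 ± 0.44 with RA in the clone (adjusted p = 0.16) and by -1.51 ± 0.44 from the parental line with RA (adjusted p = 0.0491). Foxm1, the transcription factor of the G2 and M genes, differed by -1.34 ± 0.35 with RA in the clone (adjusted p = 0.085) and by -0.41 ± 0.35 from the parental line with RA (adjusted p = 0.439). A dim Foxm1 probe gave 0.74 with RA in the parental line where the chosen probe gave -0.41.

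**Figure D3:**
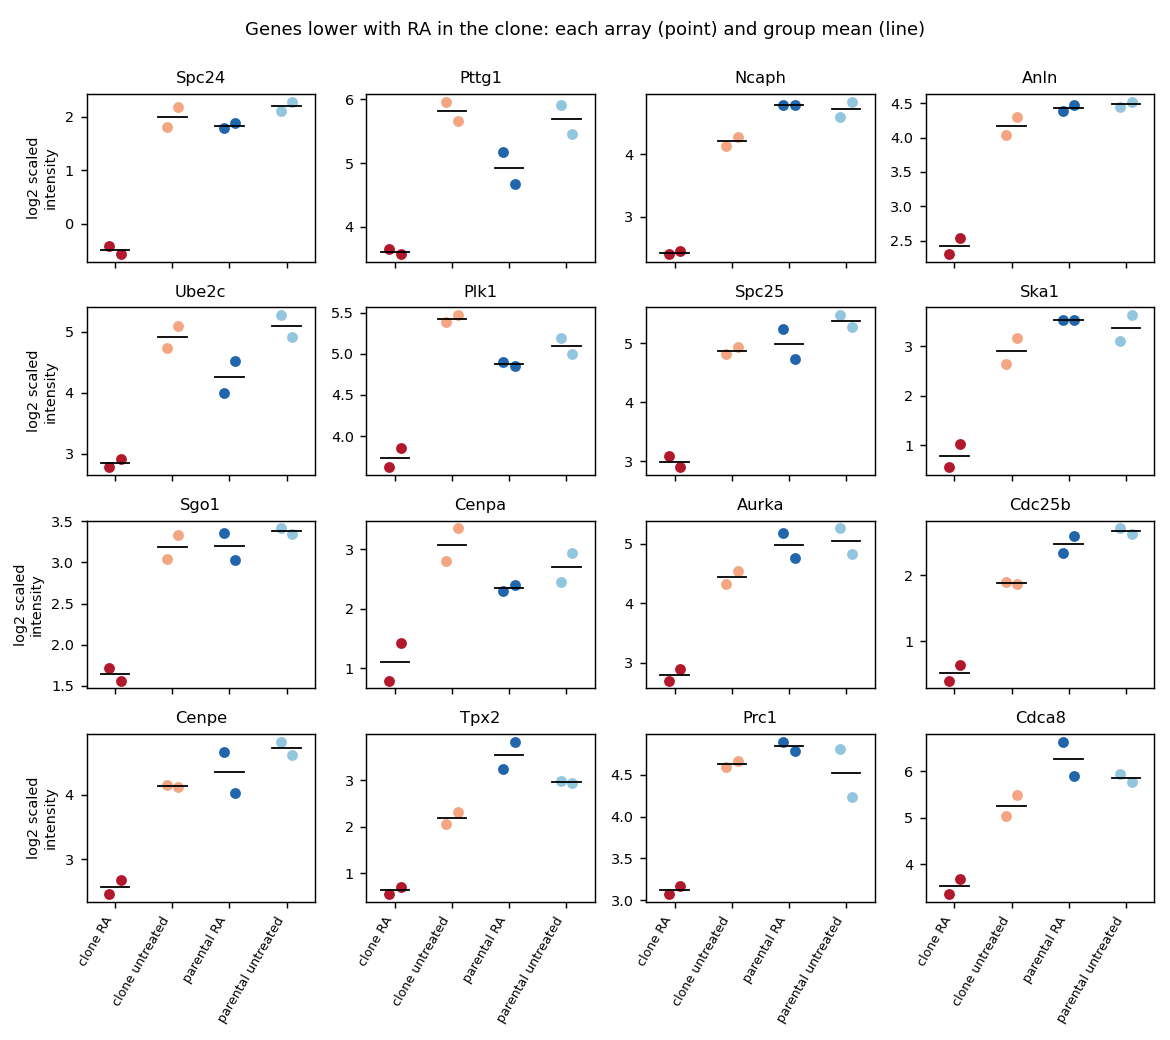
Log2 scaled intensity (y axis) on each array (points) with the group mean (line) for the 16 genes that fell with RA in the clone, in the 4 groups (x axis). In every panel both clone RA arrays lie below the other 6 arrays, as for 45 of the 53 genes.

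Without clone RA replicate 1, the array that stood apart, 50 of 53 genes were still below 0 with RA in the clone and the median log2 difference was -1.19. The count that passed the test was 2, Spc24 (-2.56, adjusted p = 0.0267) and Pttg1 (-2.25, adjusted p = 0.0476), against 1.82% of all genes called in either direction, and 34 had an unadjusted p under 0.05. The difference was more negative without that array for 15 genes. Fzr1 changed sign to 0.29, Cenpf moved to -0.58, Ska2 to 0.74 and Mis12 to 0.66, none of them past the threshold. Against the parental line with RA, the median log2 difference without replicate 1 was -1.59, and 52 of 53 genes were below 0. There too the difference was more negative for 15 genes. Ska2 moved from -1.51 to -0.96, Cenpa from -1.24 to -0.93 and Bub1b from -1.82 to -1.44. The calls given by role rest on both clone RA arrays, and the range of the count without 1 array is given under processing. Leaving out clone RA replicate 2 in its place gave 20 genes lower with RA in the clone. The count was 0 without clone untreated replicate 1 or replicate 2, with 39 and 30 genes at an unadjusted p under 0.05, and 2 without parental untreated replicate 1 or replicate 2. The median over the 53 genes lay between -1.38 and -1.09 in the 18 alternatives tried. Apart from the 1.82% above, shares of all genes called are not given for these fits. A changed count may therefore concern the whole array. The count was also 0 with no filter on dim probes (41 at an unadjusted p under 0.05) and with only the clone arrays fitted (39), and 31 with probes above background on all arrays or with a trended and robust variance.

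**Figure D4:**
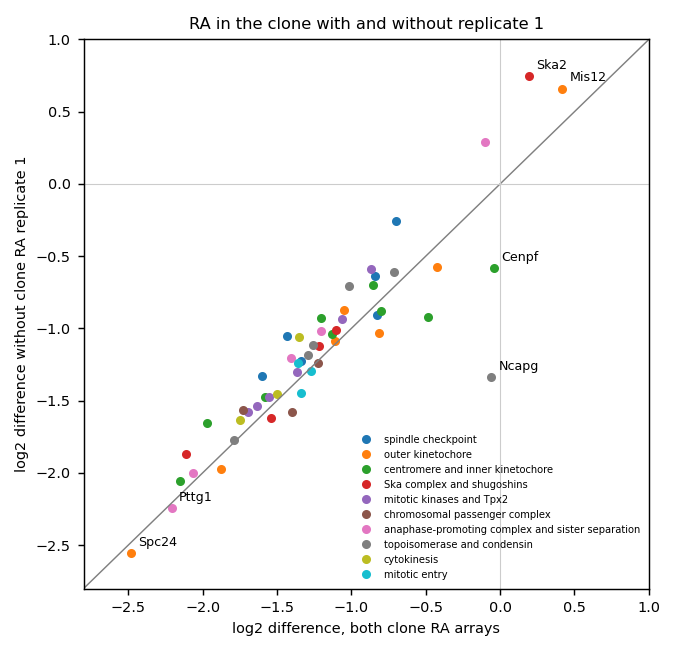
Log2 difference of RA against untreated in the clone without clone RA replicate 1 (y axis) against the same with both arrays (x axis), 1 point per gene coloured by role, with the line of equality. Most genes lie near the line, and Ncapg and Ska2 lie farthest from it.

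In the parental line, RA moved none of the 53 genes past the threshold in either direction, against 0.59% of all genes lower and 0.529% higher, and 6 (11.3%) had an unadjusted p under 0.05, against 14.4% of all genes. The median log2 difference was 0.034, against 0.021 over all genes, with 28 genes above 0 and 25 below. Both RA arrays lay below both untreated arrays for 13 genes (24.5%, against 20.9% of all genes) and above for 11 (20.8%, against 23.4%). The lowest differences were those of Ube2c at -0.83 ± 0.31 (adjusted p = 0.288) and Pttg1 at -0.77 ± 0.31 (adjusted p = 0.328). Mis12 at 1.14 ± 0.33 (adjusted p = 0.171), Top2a at 0.95 ± 0.29 (adjusted p = 0.186) and Espl1 at 0.87 ± 0.34 (adjusted p = 0.308) had the highest. For 37 of 53 genes the 95% interval excluded a fall of 2-fold or more. Across the 53 genes, the RA differences of both lines, which share no array, had a Pearson r of 0.42 and a Spearman rho of 0.44, given as a description since these genes are not independent of each other.

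Before treatment, the comparison of the untreated lines asks whether the clone already differs. None of the 53 genes passed the threshold, against 3.69% of all genes lower and 6.13% higher in the clone, and 9 (17.0%) had an unadjusted p under 0.05, against 23.7% of all genes. The median log2 difference was -0.24, against 0.11 over all genes, and 37 of 53 were below 0. Both untreated clone arrays lay below both untreated parental arrays for 26 genes (49.1%, against 24.0% of all genes) and above for 5 (9.43%, against 36.1%), which were Mad1l1, Mad2l1, Plk1, Incenp and Foxm1. Nek2 at -1.42 ± 0.38 (adjusted p = 0.0656), Ska2 at -1.50 ± 0.45 (adjusted p = 0.0885) and Cenpi at -1.17 ± 0.35 (adjusted p = 0.0892) came nearest to the threshold. One of the dim Mad2l1 probes was higher in the untreated clone (1.51, adjusted p over probes = 0.0375), where the chosen probe gave 0.27. The second Nuf2 probe was likewise higher in the untreated clone (1.65, adjusted p over probes = 0.0346), where the chosen probe gave -0.39. For 24 of 53 genes the 95% interval excluded a 2-fold lower level in the clone.

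**Figure D5:**
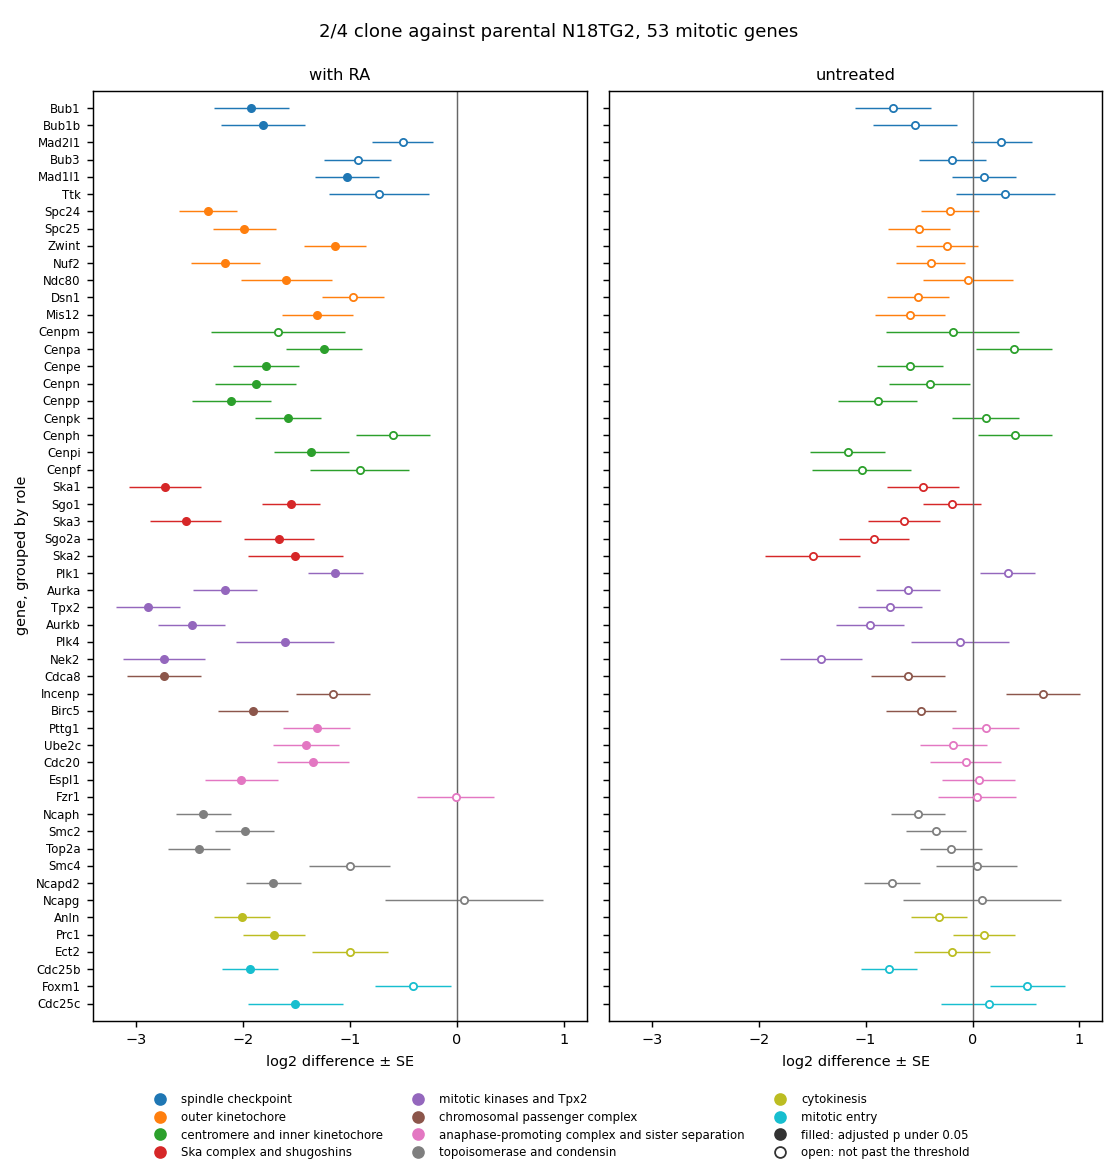
Log2 difference of the clone against the parental line with RA and untreated, with standard errors, for the 53 genes grouped by role. With RA 40 genes are lower past the threshold, and untreated none is.

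The difference between both RA responses asks whether RA acted otherwise in the clone than in the parental line. It was below 0 for 52 of 53 genes, with a median of -1.36 on the log2 scale against -0.021 over all genes. None passed the threshold, against 0.0838% of all genes called lower and 0.122% higher, and 32 (60.4%) had an unadjusted p under 0.05, against 13.9% of all genes. A difference between the lines in their RA response was therefore not shown for any of these genes by this test. The count was 5 with probes above background on every array (Spc24, Ska1, Tpx2, Top2a and Ncaph) and 10 with a trended and robust variance. Spc24 had a difference of -2.12 ± 0.38 with a 95% interval from -3.02 to -1.21 (adjusted p = 0.0875). Top2a stood at -2.21 ± 0.41 (adjusted p = 0.0895) and Ska1 at -2.27 ± 0.48 (adjusted p = 0.119). For 9 genes (17.0%, against 4.37% of all genes) RA arrays lay below untreated arrays in the clone and above them in the parental line with no overlap in either, and for 0 genes the other way round (against 3.78%). Without clone RA replicate 1 the median was -1.30 and the count 0.

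In the averages over both lines or both treatments slide row cancels, but slide column does not cancel in the line effect. The RA effect averaged over both lines was lower past the threshold for 10 genes and higher for 0, against 2.7% of all genes lower and 3.13% higher, with a median of -0.51. Spc24 (-1.42 ± 0.19, adjusted p = 0.0152), Pttg1 (-1.49 ± 0.22, adjusted p = 0.0178) and Ube2c (-1.45 ± 0.22, adjusted p = 0.0193) led them. Leaving out 1 array moved this count to between 0 and 13: it was 0 without either untreated array of the clone or of the parental line, 4 without clone RA replicate 1, 1 and 3 without parental RA replicate 1 and 2, and 13 without clone RA replicate 2. The line effect averaged over both treatments was lower in the clone for 33 genes and higher for 0, against 11.6% of all genes lower and 16.1% higher, with a median of -0.98. Tpx2 (-1.83 ± 0.21, adjusted p = 0.00111), Ncaph (-1.44 ± 0.18, adjusted p = 0.00152) and Nek2 (-2.08 ± 0.27, adjusted p = 0.00178) led those. Nuf2 was among the 33 by its chosen probe (-1.28), while its second, dim probe gave 0.17. The count was 23 to 31 when 1 array was left out. Over the 7 comparisons, which share arrays, 42 of the 53 genes (79.2%) passed the threshold in at least 1, against 33.5% of all genes, and Bub3, Ttk, Cenpf, Cenph, Cenpm, Incenp, Fzr1, Smc4, Ncapg, Ect2 and Foxm1 in none.

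Related lists of the cell cycle are given by their counts. Over all genes, 2.05% fell with RA in the clone, and 21.6% had an unadjusted p under 0.05 there. Against the parental line with RA, 10.2% of all genes were lower and 12.9% higher. With RA in the parental line, 14.4% of all genes had an unadjusted p under 0.05. A count near such a share is not a result about its list. Among 15 mitotic cyclins and spindle motors, 6 fell with RA in the clone (median -1.33), led by Ccna2 (-1.68 ± 0.32), Cdk1 (-1.40 ± 0.27), Ccnb2 (-1.65 ± 0.32) and Kif23 (-1.74 ± 0.35), and 8 were lower than in the parental line with RA. Of 29 other genes of mitosis and cytokinesis, 7 fell with RA in the clone (median -1.22), led by Sapcd2 (-1.96 ± 0.27), Gtse1 (-1.47 ± 0.28), Pimreg (-2.12 ± 0.41) and Nusap1 (-1.44 ± 0.29), and 19 were lower than in the parental line with RA. Of 21 other kinetochore and centromere genes, 2 fell with RA in the clone, among them Itgb3bp (-1.38 ± 0.29), with 12 lower and 1 higher than in the parental line with RA. Of 14 subunits and regulators of the anaphase-promoting complex, 1 fell, the inhibitor Fbxo5 (-1.34 ± 0.27), and 3 were lower and 2 higher than in the parental line with RA. The higher ones, Anapc5 (1.57 ± 0.29) and Anapc10, are subunits of the complex itself, but subunits did not move alike. Cdc26, also a subunit, read 0.96 and 1.42 in the clone with RA and 3.34 and 2.79 in the RA-treated parental line. By sign alone, 9 of the 14 were lower in the clone with RA and 5 higher. Anapc10 was well above background on 1 of the 2 parental RA arrays, so no fold is given for it. Of 15 cohesin and condensin II genes, 0 fell with RA in the clone, with 5 at an unadjusted p under 0.05, and 8 were lower and 1 higher than in the parental line with RA, where Esco2, the cohesin acetyltransferase, stood at -3.46 ± 0.29. Among 19 DREAM and MuvB-MYB regulators, Mybl2 (-1.75 ± 0.26) and E2f2 (-1.37 ± 0.25) fell, and 10 were lower than in the parental line with RA, among them E2f8 (-3.11 ± 0.30). Of 30 DNA replication genes, Rrm2 (-1.39 ± 0.25) and Rfc5 (-1.49 ± 0.27) fell, with 10 lower and 1 higher than in the parental line with RA. The replication list had a median of -0.54 with RA in the clone, and RA in the parental line gave 0.45. In the parental line RA called 0 genes of any of these lists, with 3, 0, 1, 1, 4, 2 and 6 genes of the kinetochore, anaphase-promoting complex, cohesin, cyclin, other mitosis, DREAM and replication lists at an unadjusted p under 0.05.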

How the data were processed

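RNA of the 2/4 clone and parental N18TG2, with RA and untreated, was hybridised to 8 one-colour arrays (design 028005), 2 per group, which lay on 1 slide with 1 scan time. Per the file headers, Feature Extraction 10.7.3.1 made the deposited intensity values, background-subtracted and not scaled between arrays. The series table holds deposited log2 values; set against the scanner values, each column was that intensity on the log2 scale less 1 constant, and it served as an alternative. Per the labels, groups were taken from the sample descriptions, and replicate numbers follow sample order and pair nothing.

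Here, each array's 75th percentile over its 59305 non-control spots was subtracted on the log2 scale. Outlier spots were dropped and the spots of each probe averaged. The filter kept 36636 of 55681 probes, those well above background on 2 or more of the 8 arrays. The brightest probe stood for each gene, which gave 26262 genes, of which 15179 had a symbol through RefSeq accessions (GRCm38.p6 table) and 11083 had none. Sgol1 and Sgol2a appear under their RefSeq symbols Sgo1 and Sgo2a. Of the 53 genes, 42 had 1 probe, 9 had 2 and 2 had 3; 65 of the 66 probes were well above background on all 8 arrays and 1 on 7, so the filter removed none of the 53 genes. The tests came from limma 3.58.1 (R 4.3.3), with a mean for each group, all 8 arrays in 1 fit and 4 residual and 3 prior degrees of freedom; the threshold was 0.05 on the p adjusted by Benjamini and Hochberg's method over all genes. The fit was also run on simulated data, and no conclusion about these arrays is drawn from that. The number of arrays limits the precision.

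The untreated clone shared slide row 1 with the RA-treated parental line, and the RA-treated clone shared row 2 with the untreated parental line. Replicate 1 of each group lay in the left slide columns, where the 75th percentile was 264.8 to 608, and replicate 2 in the right ones, where it was 737 to 1264. The 53 genes and the other lists were chosen with earlier results of these data known. Array values are given for 33 genes: those past the threshold with RA in the clone and, up to 12 each by smallest adjusted p, in the other comparisons, and the genes with the largest and smallest RA difference of each role. Up to 4 genes per other list are named. Clasp1 and Kif14 of those lists were not analysed here. A gene that this rule names in those lists is not reported here.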

Additional observations from a re-analysis of the deposited data

Results flagged for a closer look

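For 9 genes RA arrays lay below untreated arrays in the clone and above them in the parental line, without overlap in either line. The difference between the RA responses was -1.78 for Nuf2 (limma adjusted p = 0.163), -1.7 for Cenpk (adjusted p = 0.166) and -1.9 for Ska3 (adjusted p = 0.155). It was -1.32 for Nek2 (adjusted p = 0.343), -2.12 for Tpx2 (adjusted p = 0.107) and -2.08 for Espl1 (adjusted p = 0.135). For Top2a it was -2.21 (adjusted p = 0.0895), for Smc2 -1.65 (adjusted p = 0.143) and for Ncapd2 -0.97 (adjusted p = 0.311). The test of the difference passed the threshold for none of the 9. Such opposite movement without overlap was met by 4.37% of all genes. Slide row goes with this difference and cannot be told apart from it.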

How the results depend on the processing

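No paired analysis was possible because the labels give no replicate numbers that groups share; slide side as a block is the nearest alternative, and the file tables hold no mean spot signal, so normexp used the median spot signal. Of 1739 values of called genes under alternatives, 1334 kept their call, 405 lost it and 0 changed sign. By comparison, 168 of 288 kept it for RA in the clone and 83 of 170 for the average RA effect. For the clone against the parental line with RA it was 595 of 720, and for the average line effect 488 of 561. All these values reuse the same arrays. For RA in the clone the count of 16 became 0 with no filter on dim probes or with only the groups compared, 31 with probes above background on every array, and 31 with a trended and robust variance; leaving out 1 array at a time gave 0 to 20, with 2 without clone RA replicate 1, 0 without clone untreated replicate 1 or 2, and 2 without parental untreated replicate 1 or 2. It was 12 with normexp, 13 with slide side as a block, and 15 or 16 with the mean of a gene's probes, quantile normalization, the series table values and outlier spots kept. For clone against parental with RA the count of 40 became 21 with only the groups compared, and 27 to 34 without 1 array, where Ncapg was called higher (1.34, adjusted p = 0.039) without clone RA replicate 2. Untreated, the count of 0 became 1 with slide side as a block (Nek2) or with only the groups compared (Cenpi), 2 with probes above background on every array (Nek2 and Ska2), and 3 (Nek2, Ska2 and Cenpi) with a trended and robust variance or without clone RA replicate 1 or 2, a range of 0 to 3 over the arrays left out. For the difference between the RA responses the count of 0 became 5 with probes above background on every array and 10 with a trended and robust variance, and ran from 0 to 2 without 1 array, with Ska1 and Top2a called without clone RA replicate 2. For the average RA effect the count of 10 became 4 with normexp, 6 with quantile normalization, 0 with no filter (26 at an unadjusted p under 0.05), 17 with probes above background on every array and 19 with a trended and robust variance, and ran from 0 to 13 without 1 array: 4 without clone RA replicate 1, 0 without clone untreated replicate 1 or 2 or parental untreated replicate 1 or 2, 1 without parental RA replicate 1 and 3 without parental RA replicate 2. For the average line effect the count of 33 ran from 23 to 31 without 1 array. For RA in the parental line it was 0 in all 18 alternatives, with 1 to 8 genes at an unadjusted p under 0.05, and the median lay between -0.0065 and 0.10, so its sign depends on the setting. Quantile normalization moved the median of all genes with RA in the clone to -0.127, where the 53 genes had -1.09, and against the parental line with RA to -0.145, where they had -1.70. With normexp the median of all genes was -0.222 for RA in the parental line, where the 53 genes had 0.062, -0.192 for the untreated lines, where they had -0.22, and 0.201 for the difference between the RA responses, where they had -1.27. The cause of these changes was not tested. Signal over background limits dim probes; in the clone with RA the arrays spread most for Ncapg, Ska2 and Cenpf.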
